A study of Homo sapiens with 40 samples.

Results

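The RNA of the soluble nuclear extract (SNE) was set against that of the cytoplasmic extract (CE) of the same cells on day 3 of mesoderm differentiation. The 4 libraries, 2 of SNE and 2 of CE, were chosen by the day and extract in their labels, of 36 total RNA libraries and 40 samples in all. All of them came from wild-type H1, a long-established line of human embryonic stem cells. Every group carried the same genotype, and day 0 cells were undifferentiated. For days 3 and 5 the cells were grown in a serum-containing mesoderm medium with ascorbic acid and monothioglycerol, first with BMP4, a ligand of the TGF-beta family, and then with bFGF, a fibroblast growth factor. A kit with successive buffers and spins first released the cytoplasmic extract, then a membrane extract, then the soluble nuclear extract. INPUT libraries, used beside them as a reference level, were taken as RNA of cells that had not been fractionated. Of 57939 genes listed, 18097 were at 1 TPM (a length-scaled share of the library's transcripts) or more in at least 2 of the 4 libraries and were tested.

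In a human cell, pre-mRNA is spliced and given its 3′ end in the nucleus, and most mRNA then leaves through nuclear pores to be translated by ribosomes in the cytoplasm. Some transcripts stay in the nucleus, among them architectural long noncoding RNAs (lncRNAs) such as MALAT1 and NEAT1, the host transcripts of many microRNAs, and mRNAs that keep an intron. Mitochondria make their own mRNAs and tRNAs inside the organelle, from both strands of a small circular genome.

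Nuclear lncRNAs stood higher in SNE and cytosolic mRNAs such as GAPDH in CE, as their labels have it, but SNE did not hold nuclear RNA alone. Genes of the mitochondrial genome took 28.75% and 28.94% of summed TPM in the SNE libraries, 1.86% and 1.826% in CE, 22.03% and 21.68% in INPUT and 47.66% and 54.72% in the membrane extract. Replicates were close, with Pearson's r of 0.968 between the SNE libraries and 0.981 between the CE libraries over the tested genes. The tables hold no read counts. The spacing of the low values put 1 read on a gene with 1 kb of exons at 1.47 and 1.32 TPM in SNE and at 0.943 and 0.707 TPM in CE, so values of genes that are both short and scarce rest on few reads. At least 1 TPM was reached by 18250 and 18312 genes in SNE and by 14702 and 15047 in CE. The labels do not say that replicates came from separate cultures, and p-values therefore measure only the spread between these libraries, which may be technical. TPM is a share of a library and no spike-in was described. In such bulk extracts, fewer cells of a kind and less RNA per cell cannot be told apart.

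Most genes stood higher in SNE as a share of the library. SNE was higher for 8144 genes (45.0% of those tested) and lower for 2114 (11.7%), at an adjusted p under 0.05 from limma and a log2 difference of at least 1 on the log2(TPM + 1) scale. The median gene stood 0.88 higher in SNE. Both SNE libraries exceeded both CE libraries for 66.7% of genes and fell below them for 24.2%, so groups that do not overlap were common. Among genes with at least 500 bases of exons 45.1% were higher and 11.5% lower. With mitochondrial genes removed and each library rescaled to the same total, 10148 genes were higher (56.2%) and 1429 lower (7.91%), and the median gene stood at 1.27. With every library set to a common median the split turned over, to 2934 higher (16.2%) and 5133 lower (28.4%), with the median gene at -0.17. Quantile normalisation gave 3982 higher (22.0%) and 4036 lower (22.3%), with the median gene at 0.06. Groups of genes are therefore read below against the median gene of 0.88, and counts under a common median are given beside theirs. The INPUT mean lay between the 2 extracts for 8024 of the 8144 genes higher in SNE (98.5%) and 2088 of the 2114 lower (98.8%), against 83.0% of all genes tested. Called genes were chosen for a wide gap between the extracts, in which INPUT falls more easily. The larger shares are therefore no support for the calls. The plot of SNE against CE levels shows the bulk of genes along the line of the median gene, with mitochondrial mRNAs above it and histone mRNAs below.

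**Figure D1:**
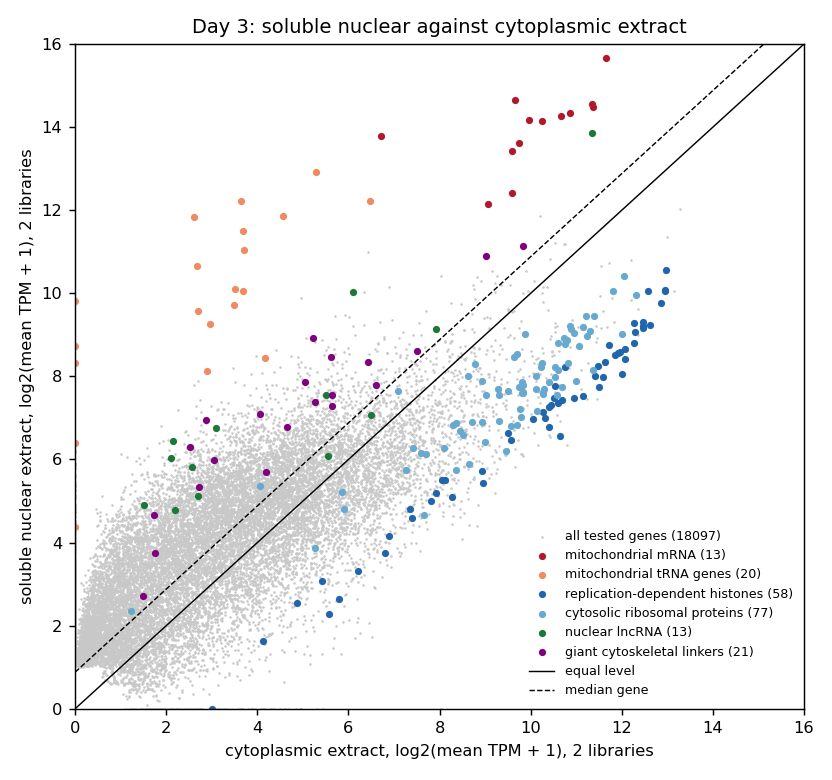
Each point is a tested gene, with its level in CE on the horizontal axis and in SNE on the vertical axis, both as log2(mean TPM + 1) over 2 libraries. The solid line marks equal levels and the dashed line the median gene, 0.88 higher in SNE; the coloured points are gene groups named in the key.

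Protein-coding genes took 84.5% ± 0.209 of summed TPM in CE and 56.9% ± 0.0146 in SNE (mean ± SD, n = 2 each). The lncRNA share was 8.18% ± 0.0205 in SNE and 2.88% ± 0.173 in CE. Pseudogenes, many of them copies of ribosomal protein and other housekeeping mRNAs whose reads cannot be told from those of the parent gene, took 3.98% in SNE and 8.45% in CE. Of 12948 protein-coding genes outside the mitochondrial genome, 5413 were higher in SNE and 1645 lower, with a median of 0.74. Of 3346 lncRNAs, 1878 were higher and 139 lower, with a median of 1.24. Of 1539 pseudogenes, 725 were higher and 312 lower, with a median of 1.11. Over all tested genes 45.0% were called higher and 11.7% lower. These shares were 41.8% and 12.7% for protein-coding genes, 56.1% and 4.15% for lncRNAs and 47.1% and 20.3% for pseudogenes. Pseudogenes were thus called higher about as often as all genes and lower more often, and their summed share was larger in CE.

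Transcripts of the mitochondrial genome were the group furthest towards SNE. By medians within mRNAs and within tRNAs, those coded on its light strand stood further above INPUT than those of the heavy strand. All 13 tested mRNAs were higher, also under a common median, with a median log2 difference of 3.83. MT-CO1, the catalytic subunit of cytochrome c oxidase, stood at 53202 and 50988 TPM in SNE and at 3294 and 3109 in CE (log2 4.02 ± 0.08, adjusted p = 5.64e-09; standard errors follow log2 differences after the ± sign). Both SNE libraries were far above both CE libraries and also above INPUT, at 36058 and 34496 TPM. Across the 12 mRNAs of the heavy strand the difference ran from 2.81 for MT-ND3 to 5.00 for MT-ND5, both subunits of complex I. Relative to INPUT the SNE level of these 12 ranged from 0.780 to 1.86 with a median ratio of 1.05, so SNE was near INPUT for most of them while CE was far below it.

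MT-ND6, a complex I subunit and the single mRNA coded on the light strand (mitochondrial genome, 14149 to 14673), stood apart from them. It reached 14128 and 14152 TPM in SNE, 93.4 and 116 in CE and 3101 and 3178 in INPUT, a log2 difference of 7.07 ± 0.18 (adjusted p = 1.26e-08). The SNE libraries were above both other pairs, and at 4.50 times the INPUT level. SNE minus CE was 7.04 on day 0 and 7.25 on day 5. The mitochondrial tRNAs went the same way. Of the 20 tested, all were higher in SNE, with a median of 7.62, or 7.32 with the 5 that were listed at 0 in both CE libraries set to a floor of 3 reads. The 8 light-strand tRNA genes together held 2.15% and 2.27% of summed TPM in SNE, 0.00962% and 0.00831% in CE, and a median of 11.1 times INPUT in SNE. The 12 heavy-strand tRNA genes had a median of 4.31 times INPUT. Single genes overlapped, with ratios of 2.06 to 19.7 on the light strand and 0.882 to 13.7 on the heavy strand. MT-TP, the proline tRNA of the light strand, stood at 7539 and 7996 TPM in SNE and at 55.5 and 20.8 TPM in CE, where 1 read on its 68 bases is worth 13.9 and 10.4 TPM. Strand use in the counting is not given in the sources used here, and light-strand genes lie opposite heavy-strand transcripts, so reads of the 2 strands may not have been separated. The mitochondrial rRNAs were nearly absent, at 5.08 TPM or less in these 4 libraries.

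**Figure D2:**
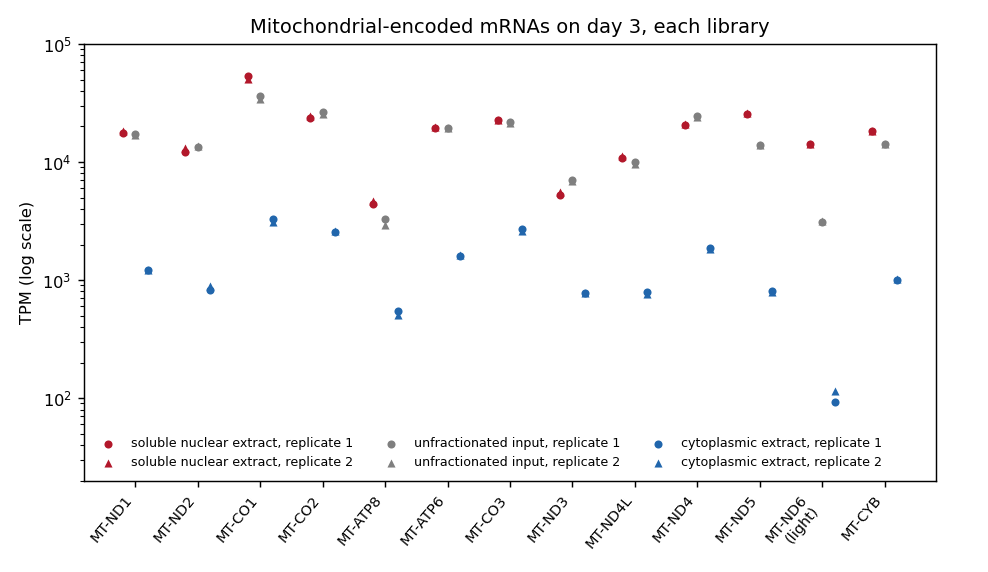
The 13 mitochondrial-encoded mRNAs are shown on the horizontal axis with TPM on a logarithmic vertical axis, each point a library of SNE, INPUT or CE on day 3, circles for replicate 1 and triangles for replicate 2. CE points lie lowest for every gene, and MT-ND6, marked as light strand, is the gene with SNE furthest above INPUT.

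Replication-dependent histone mRNAs, made in S phase to package new DNA, were the group furthest towards CE. These mRNAs end in a conserved stem-loop in place of a poly(A) tail. All 58 tested histone genes of 64 listed were lower in SNE, also under a common median, with a median of -3.14. Together they took 1.65% and 1.64% of summed TPM in SNE, 15.3% and 13.7% in CE and 8.45% and 7.87% in INPUT. H3C13, a gene for histone H3, stood at 272 and 257 TPM in SNE and at 4202 and 3989 in CE (-3.95 ± 0.05). H4C1, a histone H4 gene (chromosome 6, 26021679 to 26021990, GRCh38), stood at 109 and 80.4 TPM in SNE and at 1687 and 1491 in CE (-4.07 ± 0.14, adjusted p = 4.32e-08). For both genes the extracts did not overlap. The linker histone H1-5 was less far apart, at 1477 and 1539 TPM in SNE and 8505 and 7639 in CE (-2.42). Near-identical histone genes can share reads, so values of single copies are uncertain. The histone variants whose mRNAs carry a poly(A) tail gave 0 higher and 5 lower of 9, with a median of -1.43 (0 and 7 under a common median). Among them H2AZ1 stood at 593 and 563 TPM in SNE against 2117 and 2101 in CE (-1.87).

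The stem-loop can be read in the annotated transcripts. The 16 bases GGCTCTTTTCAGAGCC, searched on the transcript strand, were found in 15 of the 58 tested histone genes (25.9%) and in 19 of all 18097 tested genes (0.105%). The 4 examples below, from GENCODE 29 transcripts, show the stem-loop in capitals with its flanks.
H2BC13: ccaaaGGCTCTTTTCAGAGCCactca
H3C14: caaaaGGCTCTTTTCAGAGCCaccca
H3C10: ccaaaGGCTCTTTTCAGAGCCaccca
H2AC8: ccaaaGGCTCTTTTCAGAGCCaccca
The 15 histone genes with this exact run had a median of -3.13 and the 43 without it -3.14. These mRNAs as a class end in a stem-loop, and the search found only 1 exact version of it. The medians therefore do not compare genes with a stem-loop to genes without one. The 4 genes with the run outside the list were H2AW (-2.46), H2BU1 (-1.61), CHMP1B2P (1.11) and AL031777.2 (0.53).

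Messages of the ribosome and of energy metabolism leaned to CE. Of 77 tested cytosolic ribosomal protein genes, 70 were lower in SNE and 2 higher (0 higher and 74 lower under a common median, 0 higher and 48 lower after quantile normalisation), with a median of -1.96. Their share of summed TPM was 2.15% and 2.14% in SNE and 9.54% and 8.70% in CE. RPLP0, a stalk protein of the large subunit, stood at 1389 and 1363 TPM in SNE and at 4514 and 3983 in CE (-1.62). RPL29, also of the large subunit, stood at 290 and 279 TPM in SNE and at 2712 and 2597 in CE (-3.22). The 2 called higher in SNE were RPS9 (1.13) and RPL39L (1.33), and neither was higher under a common median.

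Ribosomal protein mRNAs start with a terminal oligopyrimidine (TOP) run, a C followed by a stretch of C and T through which growth signals set their translation. The first 20 transcribed bases of 6 genes are shown here from RefSeq start sites on GRCh38.p14, 5′ to 3′ on the transcript strand, with the unbroken run of C and T in capitals.
RPLP0: CCTTCTCTCgccaggcgtcc
RPL41: CTCTCggccttagcgccatt
RPL29: CTCTTCCggttctaggcgct
RPL13A: CTTTTCCaagcggctgccga
SNHG1: CTCatttttctactgctcgt
ZFAS1: CTTTCgcgtctgcggtgccc
They come from chr12:120201092-120201111 (minus strand), chr12:56116633-56116652 (plus), chr3:51995876-51995895 (minus), chr19:49487608-49487627 (plus), chr11:62855866-62855885 (minus) and chr20:49278642-49278661 (plus). SNHG1 and ZFAS1, hosts of small nucleolar RNAs, are shown because they stood on the other side of the comparison. ZFAS1 meets the definition of a TOP run used next, and SNHG1, whose run ends at the third base, does not. With a TOP run defined as a C at the first base followed by at least 4 bases of C or T, 38 of 51 ribosomal protein genes with a start sequence held one (74.5%), against 397 of 7316 tested protein-coding genes (5.43%) and 1429 of all 35116 start sites (4.07%). Of the 38 with the run 35 were lower in SNE, with a median of -1.89. Of the 13 without it 12 were lower, with a median of -2.03. Outside the ribosomal protein list, 359 genes with the run had a median of 0.41 and 6906 without it 0.70. A match is a description of the letters at the annotated start and not of a measured start.

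Mitochondrial ribosomal proteins are coded in the nucleus and made on cytosolic ribosomes. Of their 69 genes 43 were lower in SNE and 8 higher, with a median of -1.29 (1 higher and 55 lower under a common median). With genes of the mitochondrial genome removed, 27 were lower and 10 higher. MRPL41 was among the lowest, at 24.97 and 16.53 TPM in SNE and 301 and 318 in CE (-3.86), and MRPS25 stood on the other side, at 132 and 134 TPM in SNE and 28.1 and 31.3 in CE (2.13). Nuclear-encoded subunits of the respiratory chain gave 40 lower and 2 higher of 66, with a median of -1.67 (57 lower and 1 higher under a common median). With genes of the mitochondrial genome removed, 35 were lower and 3 higher. NDUFB11, a complex I subunit, stood at 25.1 and 29.3 TPM in SNE and 348 and 349 in CE (-3.64). NDUFS4, another complex I subunit, was the largest exception at 24.1 and 24.3 TPM in SNE and 4.19 and 4.74 in CE (2.21). Complex I therefore had mRNAs on both sides, since its mitochondrial-encoded subunits were higher in SNE.

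Glycolytic enzymes gave 8 lower and 0 higher of 15 (13 lower under a common median), with a median of -1.10. Their split was 6 lower and 2 higher with mitochondrial genes removed. GAPDH, the glyceraldehyde phosphate dehydrogenase of this pathway (chromosome 12, 6533927 to 6538374), stood at 1459 and 1467 TPM in SNE and at 8057 and 7426 in CE (-2.40 ± 0.06, adjusted p = 9.66e-09). LDHA, which turns pyruvate to lactate, stood at 52.5 and 49.0 TPM in SNE and 278 and 298 in CE (-2.48). For both genes the CE libraries were high and the extracts did not overlap. Translation factors divided more evenly, with 16 lower and 6 higher of 60 and a median of -0.45. Their split was 2 higher and 42 lower under a common median but 13 higher and 10 lower with mitochondrial genes removed. EEF1A1, which brings aminoacyl-tRNA to the ribosome, stood at 2665 and 2612 TPM in SNE and 8495 and 7678 in CE (-1.61). EIF4G3, a scaffold of the cap-binding complex, stood at 46.9 and 47.1 TPM in SNE and 6.17 and 7.05 in CE (2.66).

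Messages of tubulins, actins and protein handling also leaned to CE. Tubulins, actins and thymosins gave 18 lower and 0 higher of 24 (19 lower under a common median), with a median of -1.91. Their split was 17 lower and 1 higher with mitochondrial genes removed. ACTB, cytoplasmic beta-actin, stood at 392 and 383 TPM in SNE and 1471 and 1347 in CE (-1.86). TUBA1B, an alpha-tubulin, stood at 904 and 915 TPM in SNE and 4759 and 4698 in CE (-2.38). Both CE libraries exceeded both SNE libraries for each. Proteasome subunits gave 13 lower and 2 higher of 32 (25 lower and 0 higher under a common median), led by PSMB6 (-2.99). Cytosolic chaperones gave 10 lower and 0 higher of 21 (21 lower under a common median), among them the small heat shock protein HSPB1 (-3.06). Chaperones of the endoplasmic reticulum gave 12 lower and 1 higher of 25 (19 lower and 0 higher under a common median), with SDF2L1 lowest at -3.14. The lean of these 3 lists was weaker with mitochondrial genes removed. Proteasome subunits then gave 11 lower and 4 higher, and cytosolic chaperones 5 lower and 0 higher. Those of the endoplasmic reticulum gave 7 lower and 3 higher, with a median of -0.25. Among protein-coding genes with at least 500 bases of exons, the lowest was C4orf48, at 3.72 and 2.67 TPM in SNE against 89.7 and 84.4 in CE (-4.40). NOP10, a protein of box H/ACA ribonucleoproteins, stood at 76.4 and 62.2 TPM in SNE and 929 and 862 in CE (-3.68). ROMO1, a mitochondrial membrane protein, stood at 23.2 and 23.9 TPM in SNE and 352 and 342 in CE (-3.83). The single lowest gene was AC090498.1, a processed pseudogene of 75 bases, listed at 0 in both SNE libraries and at 252 and 273 TPM in CE.

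Nuclear lncRNAs stood higher in SNE. Of 13 tested genes of the list 11 were higher and 0 lower, with a median of 2.60, and 9 were higher under a common median. MALAT1, an abundant RNA of nuclear speckles (chromosome 11, 65497688 to 65506516), stood at 15124 and 14416 TPM in SNE and at 2616 and 2609 in CE (2.50 ± 0.04, adjusted p = 4.07e-09). NEAT1, the scaffold of paraspeckles, lies beside it (65422774 to 65445540) and stood at 1057 and 1021 TPM in SNE and 60.7 and 73.9 in CE (3.93 ± 0.10, adjusted p = 1.02e-08). Neither overlapped between the extracts. Over days 0, 3 and 5 the difference of NEAT1 was 2.37, 3.93 and 4.57 and that of MALAT1 2.13, 2.50 and 2.82.

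Single nuclear lncRNAs of lower abundance were further apart. FTX, an activator of XIST spanning 318533 bases of intron, stood at 86.9 and 86.7 TPM in SNE and 3.38 and 3.47 in CE (4.31 ± 0.05). JPX, which acts in the same centre, stood at 65.1 and 65.2 TPM in SNE and 3.14 and 3.42 in CE (3.95). KCNQ1OT1, the antisense RNA of an imprinted domain, stood at 28.6 and 29.1 TPM in SNE and 1.77 and 1.91 in CE (3.39). Each of these 3 was high in both SNE libraries and low in both CE libraries. XACT, a lncRNA that coats the X chromosome of human pluripotent cells, stood at 57.1 and 59.3 TPM in SNE and 1.77 and 1.59 in CE (4.47). Among lncRNAs of embryonic stem cells 8 of 14 were higher and 2 lower, with a median of 1.27 (4 higher and 3 lower under a common median). ESRG, an abundant lncRNA of that list, differed little, at 2310 and 2396 TPM in SNE and 1437 and 1522 in CE (0.67, not called). LNCPRESS2 stood at 701 and 722 TPM in SNE and 56.9 and 63.2 in CE (3.55).

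The 6 lncRNAs listed as cytoplasmic gave 2 higher and 2 lower, with a median of 0.22 (1 and 3 under a common median). NORAD, which binds Pumilio proteins in the cytosol, stood at 1036 and 1025 TPM in SNE and 1143 and 1278 in CE on day 3 (-0.23, not called), and its difference was -1.98 on day 0. Hosts of small nucleolar RNAs, whose introns carry these guides of rRNA modification, gave 10 higher and 1 lower of 23, with a median of 0.59 that fell below 0 under a common median (6 higher and 7 lower). SNHG1 stood at 1360 and 1359 TPM in SNE and 256 and 261 in CE (2.39), and ZFAS1 at 602 and 598 in SNE and 75.2 and 84.1 in CE (2.90). SNHG16 was the one called lower, at 162 and 146 TPM in SNE and 679 and 707 in CE (-2.16). Of the 20 hosts with a start sequence, the 8 with a TOP run had a median of 1.81 and the 12 without it 0.14 (no test was made of this difference).

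Host transcripts of microRNAs, a list added after the values were seen, leaned to SNE among the hosts that passed the filter. Of 24 tested hosts of 61 listed, 17 were higher and 0 lower, with a median of 2.17 (14 higher and 3 lower under a common median). A host scarce in CE could pass the filter through its SNE libraries alone. With no low-value filter 17 of 49 hosts were higher and 0 lower, with a median of 0.59 against 0.37 over all genes. The mature microRNAs of the 3 clusters described next are shown because they are the product by which these hosts are known, and group by their seed, bases 2 to 8, in capitals (RefSeq, GRCh38.p14). Mature microRNAs were not measured in these libraries. MIR17HG on chromosome 13 carries:
miR-17-5p: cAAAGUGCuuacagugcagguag
miR-20a-5p: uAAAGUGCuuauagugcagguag
miR-18a-5p: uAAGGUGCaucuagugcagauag
miR-19a-3p: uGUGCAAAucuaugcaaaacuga
miR-19b-3p: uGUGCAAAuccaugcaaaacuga
miR-92a-3p: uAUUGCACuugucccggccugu
MIR302CHG on chromosome 4, of the pluripotent cluster, carries 4 microRNAs of 1 seed and miR-367-3p, which has the seed of miR-92a-3p:
miR-302a-3p: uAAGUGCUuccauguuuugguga
miR-302b-3p: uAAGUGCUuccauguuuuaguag
miR-302c-3p: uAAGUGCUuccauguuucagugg
miR-302d-3p: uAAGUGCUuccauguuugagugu
miR-367-3p: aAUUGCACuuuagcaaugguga
MIR222HG on chromosome X carries a pair with a seed in common:
miR-221-3p: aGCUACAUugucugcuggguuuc
miR-222-3p: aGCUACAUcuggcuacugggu

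The 3 hosts differed in how far they leaned to SNE. MIR222HG stood at 235 and 232 TPM in SNE and 9.75 and 10.9 in CE (4.37 ± 0.07, adjusted p = 4.37e-09), with 3.22 on day 0 and 5.07 on day 5. MIR17HG, the host of an oncogenic cluster, stood at 153 and 148 TPM in SNE and 12.8 and 17.3 in CE (3.25 ± 0.12, adjusted p = 4.4e-08). MIR302CHG stood at 873 and 851 TPM in SNE and 349 and 360 in CE (1.28 ± 0.05), and at 0.67 on day 5. SNE was high for all 3 hosts without overlap, and MIR302CHG was the nearest to the median gene. MIR31HG stood at 33.0 and 33.7 TPM in SNE and 1.01 and 0.999 in CE (4.10), and MIR34AHG, induced by p53, at 68.1 and 70.1 in SNE and 4.63 and 5.04 in CE (3.59). MIR1915HG was the other way, at 82.5 and 80.8 TPM in SNE and 116 and 121 in CE (-0.53, not called).

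The protein-coding genes furthest towards SNE included very long ones. KIAA0825 (chromosome 5, 94152966 to 94618597), with 455229 bases of intron, stood at 76.1 and 76.2 TPM in SNE and 1.95 and 2.02 in CE (4.69). DST, the giant linker dystonin, with 454301 bases of intron, stood at 121 and 122 TPM in SNE and 6.02 and 6.65 in CE (4.07 ± 0.06, adjusted p = 4.07e-09). FGF13, a fibroblast growth factor homologue that stays inside the cell, stood at 68.6 and 70.1 TPM in SNE and 3.54 and 3.54 in CE (3.95). In each of these 3 genes the SNE libraries lay close together and far above CE. Others of this rank were CLEC2D (4.39), FAM155A (4.18), IMMP2L (4.16), THSD7A (4.00) and FANCL (3.93). The files give 1 value per gene, so spliced and unspliced RNA cannot be told apart.

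The difference followed gene length across the whole set. Exon length here joins the exons of all annotated transcripts of a gene, and intron length is the rest of its span. Exon number and GC content are those of the longest transcript. Over 12948 protein-coding genes the difference correlated with log summed intron length at Pearson's r = 0.578 (Spearman's rho = 0.682) and with log exon length at r = 0.527 (rho = 0.512). For exon number it was r = 0.417 (rho = 0.404) and for GC content r = -0.389 (rho = -0.398). These are descriptions across genes of the same 4 libraries, which are not independent replicates, and length also enters TPM itself. In genes with no intron the median was -1.02 (387 genes), in those with 5 to 20 kb of intron 0.00 (3162 genes), with 20 to 100 kb 0.97 (5111 genes), with 100 to 500 kb 1.85 (2281 genes) and with over 500 kb 2.26 (217 genes). In the longest class 95.4% of genes were higher in SNE and 0 of 217 lower. By exon length the median ran from -3.23 in genes of up to 500 bases (38 genes) to 1.58 above 8 kb (2894 genes). The median also rose with intron length within classes of exon length. Among genes with 1 to 2 kb of exons it ran from -1.66 with up to 5 kb of intron to 1.57 with over 100 kb (22 genes), and among genes with over 8 kb of exons from 0.22 (64 genes) to 1.96 (1320 genes). For lncRNAs the median went from 0.95 with no intron to 2.02 with over 500 kb (20 genes). The plot of medians by length shows the rise on all 3 days.

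**Figure D3:**
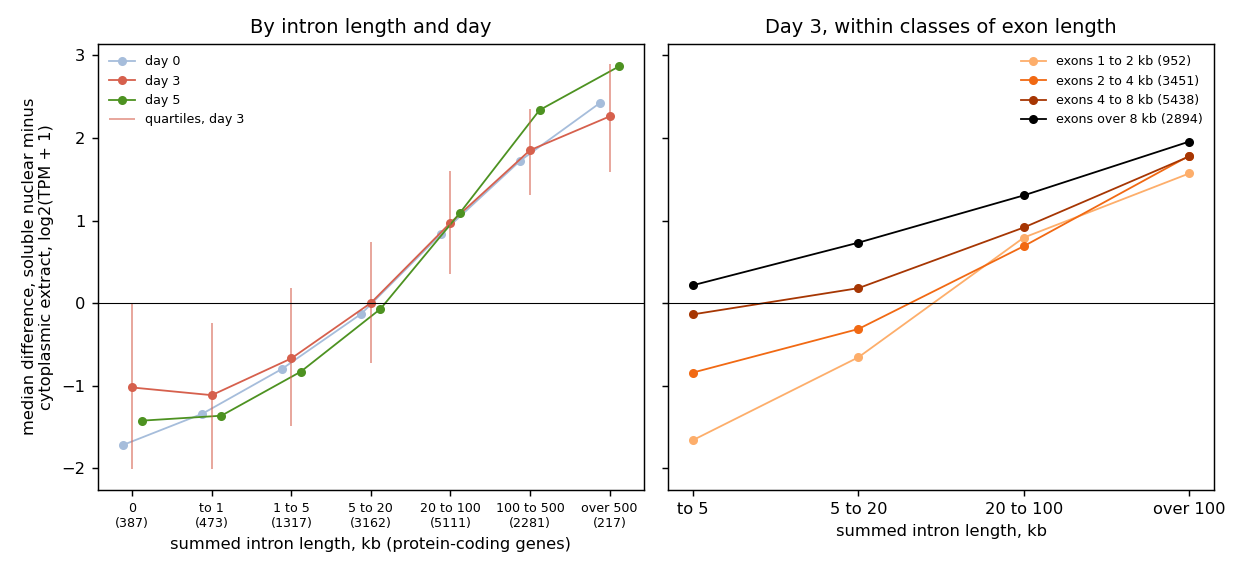
Left, median log2 difference of SNE minus CE of protein-coding genes against classes of summed intron length in kb, with the number of genes under each class, 1 line per day, and bars for the day 3 quartiles. Right, the day 3 medians against intron length within classes of exon length; on day 3 the left median runs from -1.02 with no intron to 2.26 above 500 kb.

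Enzymes that remodel chromatin or methylate histones gave 42 higher and 0 lower of 53 (18 higher and 1 lower under a common median), with a median of 1.62. KMT2A, a histone H3 lysine methyltransferase, stood at 207 and 212 TPM in SNE and 28.0 and 33.0 in CE (2.74). KMT2D, of the same family, stood at 401 and 408 TPM in SNE and 90.3 and 98.5 in CE (2.09), and at a difference of 0.14 on day 0. The bromodomain gene BAZ2B stood at 41.66 and 42.05 TPM in SNE and 3.17 and 3.43 in CE (3.32). Zinc finger genes of the ZNF series, mostly repressors of transcription, gave 207 higher and 13 lower of 388, with a median of 1.08 (73 higher and 57 lower under a common median). ZNF66 stood at 79.0 and 77.2 TPM in SNE and 3.68 and 5.29 in CE (3.87), and ZNF593, a short gene for a ribosome assembly factor, at 41.1 and 52.6 in SNE and 261 and 257 in CE (-2.45). Nuclear pore genes gave 13 higher and 0 lower of 27, with a median of 0.99, close to that of all genes, and 1 higher under a common median, where their median was below 0.

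Genes known for detained introns, which hold polyadenylated but incompletely spliced RNA in the nucleus, gave 20 higher and 0 lower of 26 (12 higher and 1 lower under a common median), with a median of 1.88. NKTR, a cyclophilin-related protein, stood at 298 and 300 TPM in SNE and 19.2 and 23.8 in CE (3.74). CLK1, a kinase of splicing factors, stood at 136 and 133 TPM in SNE and 15.8 and 18.7 in CE (2.90). CCNL1, a cyclin of splicing, stood at 369 and 366 TPM in SNE and 41.2 and 45.3 in CE (3.06). All 3 were high in SNE without overlap. MAT2A, which makes S-adenosylmethionine, was only just called, at 1214 and 1200 TPM in SNE and 566 and 626 in CE (1.02), and it stood at -0.037 under a common median. The SR and hnRNP proteins with other spliceosome factors were split, with 10 higher and 10 lower of 48 and a median of 0.06. This split was 3 higher and 24 lower under a common median and 19 higher and 7 lower after quantile normalisation, and 17 higher and 3 lower with mitochondrial genes removed. SRSF11 stood at 311 and 307 TPM in SNE and 46.9 and 52.1 in CE (2.62), and SF3B5, a small U2 particle subunit, at 111 and 80.0 in SNE and 1331 and 1361 in CE (-3.83).

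Large structural proteins were higher in SNE as well. Collagens and laminins, made at the endoplasmic reticulum, gave 37 higher and 1 lower of 47 with other matrix genes, with a median of 1.68 (12 higher and 1 lower under a common median). COL4A5, a basement membrane collagen, stood at 63.7 and 63.9 TPM in SNE and 3.65 and 4.04 in CE (3.74). FN1, fibronectin, stood at 509 and 503 TPM in SNE and 157 and 180 in CE (1.58). SPARC, a small matrix glycoprotein, was the one called lower, at 136 and 132 TPM in SNE and 352 and 386 in CE (-1.45). The giant cytoskeletal linkers, which tie actin, microtubules and junctions together, were all higher, 21 of 21 tested, with a median of 2.10 (11 higher and 0 lower under a common median, 18 and 0 after quantile normalisation). Their median exon length was 16281 bases and their median intron length 149900, against 5104 and 28183 over tested protein-coding genes. By contrast ribosomal protein genes had medians of 3109 and 2386 bases, and histone genes of 603 and 0. These lengths join all annotated transcripts of a gene, so the exon length can exceed that of a single mRNA. The plot of gene groups sets these lists beside each other.

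**Figure D4:**
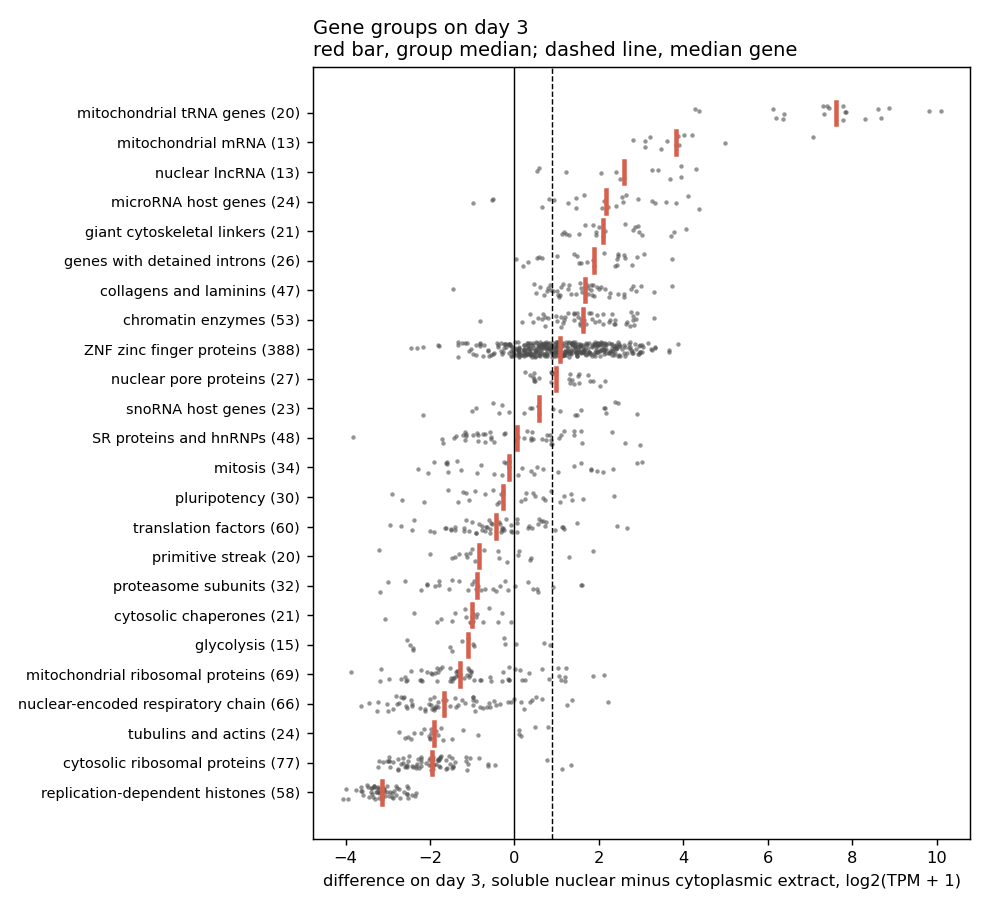
Each row is a gene group with the number of its tested genes, and each point a gene at its log2 difference on day 3, SNE minus CE. The red bar is the group median and the dashed line the median gene at 0.88; histones lie lowest (median -3.14) and mitochondrial tRNAs highest (median 7.62).

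The developmental regulators of this stage were spread over both extracts. Genes of pluripotency gave 6 higher and 8 lower of 30, with a median of -0.26 (1 higher and 16 lower under a common median, but 9 higher and 4 lower with mitochondrial genes removed). POU5F1, the core factor of pluripotency (chromosome 6, 31164337 to 31180731), stood at 14.02 and 16.02 TPM in SNE and 122.7 and 113.7 in CE (-2.90 ± 0.09, adjusted p = 2.6e-08), and its pseudogenes share sequence with it. NANOG stood at 76.7 and 80.7 TPM in SNE and 184 and 188 in CE (-1.23). JARID2, a subunit of Polycomb complex 2, stood on the other side, at 154 and 152 TPM in SNE and 27.8 and 29.9 in CE (2.37). Primitive streak genes gave 2 higher and 9 lower of 20, with a median of -0.84 (0 higher and 14 lower under a common median). Their split was 2 higher and 4 lower with mitochondrial genes removed, and 1 higher and 16 lower after quantile normalisation. MIXL1, a homeobox factor of the streak, stood at 4.29 and 5.76 TPM in SNE and 56.3 and 52.7 in CE (-3.21), and EOMES at 10.5 and 11.3 in SNE and 28.9 and 32.6 in CE (-1.42). TBXT, brachyury, did not differ beyond the threshold, at 6.80 and 6.57 TPM in SNE and 7.69 and 7.75 in CE (-0.18, adjusted p = 0.259). CDH2, the N-cadherin of migrating mesoderm, stood at 61.9 and 63.5 TPM in SNE and 15.4 and 17.5 in CE (1.87).

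Lateral and cardiac mesoderm genes gave 5 higher and 3 lower of 14, with a median of 0.50 that turned to -0.55 under a common median, with 0 higher and 6 lower. HAND1 stood at 15.2 and 18.8 TPM in SNE and 47.0 and 64.0 in CE (-1.64 ± 0.18, adjusted p = 5.13e-05), and its extracts did not overlap. NKX2-5 (-1.81) was lower as well, while TBX5 (1.40) and MEIS2 (1.68) were higher. Endoderm genes gave 0 higher and 5 lower of 8 (0 and 7 under a common median). Neuroectoderm genes gave 4 and 1 of 9, which turned to 0 and 5 under a common median. Amnion and trophoblast genes gave 2 and 5 of 16 (0 and 8 under a common median, but 7 and 3 with mitochondrial genes removed). Endothelial genes gave 3 and 2 of 8, which turned to 1 and 4 under a common median, and the 4 tested HOX genes 0 and 0 (0 and 4 under a common median). The amnion and trophoblast list was led by the keratin KRT18, at 971 and 910 TPM in SNE and 3543 and 3509 in CE (-1.91).

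Genes of the signalling pathways of early mesoderm were called on both sides. The shares called higher and lower for WNT (47.8% and 13.0%) and FGF genes (47.4% and 10.5%) were near those of all tested genes (45.0% and 11.7%). For BMP genes they were 29.2% and 16.7%. BMP genes gave 7 higher and 4 lower of 24 (5 and 12 under a common median). The receptors BMPR1A (2.15) and BMPR2 (2.44) were higher. ID1, a direct BMP target that blocks basic helix-loop-helix factors, stood at 1810 and 1764 TPM in SNE and 4836 and 4649 in CE (-1.41). WNT genes gave 11 higher and 3 lower of 23 (4 and 6 under a common median). TCF7L2, a transcription factor that binds beta-catenin, stood at 169 and 169 TPM in SNE and 16.3 and 17.9 in CE (3.23), and the target SP5 was lower (-2.13). FGF genes gave 9 higher and 2 lower of 19 (3 and 6 under a common median), with the ligand FGF2 at 252 and 247 TPM in SNE and 61.9 and 69.8 in CE (1.91) and the ligand FGF4 at -1.18. Genes of mitosis gave 10 higher and 9 lower of 34 (4 and 18 under a common median, 11 and 7 with mitochondrial genes removed). CENPE, a kinetochore motor, stood at 65.4 and 68.5 TPM in SNE and 6.98 and 7.74 in CE (3.02), and CDC20, an activator of the anaphase-promoting complex, at 167 and 152 in SNE and 602 and 606 in CE (-1.92).

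Most of the day 3 pattern was seen on the other days, each with its own SNE and CE libraries. Day 0 had 7095 genes higher in SNE (39.2%) and 2536 lower (14.0%), with the median gene at 0.69, and day 5 had 8355 higher (46.2%) and 2458 lower (13.6%), with the median gene at 0.89. Of the genes higher on day 3, 6427 were also higher on day 0 (78.9% of the day 3 and 90.6% of the day 0 list) and 7385 on day 5 (90.7% and 88.4%). Of those lower on day 3, 1767 were also lower on day 0 (83.6% and 69.7%) and 1867 on day 5 (88.3% and 76.0%). The difference between days was tested as an interaction of extract and day. SNE minus CE was higher on day 3 than on day 0 for 1166 genes (6.44%) and lower for 250 (1.38%). Against day 5 it was higher for 275 (1.52%) and lower for 498 (2.75%). Library numbers in the titles run on between the day 3 extracts and jump between those of day 5, and whether this touches the comparison with day 5 was not tested.

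The giant linkers were a group with a higher difference on day 3 than on day 0. Of the 21, 13 had a higher and 0 a lower difference, also 11 and 0 under a common median and 11 and 0 after quantile normalisation, against 738 and 110 of 12948 protein-coding genes. Over days 0, 3 and 5 their median was 0.87, 2.10 and 1.84. DYNC1H1, the heavy chain of cytoplasmic dynein (chromosome 14, 101964510 to 102056443), stood at 357 and 347 TPM in SNE and 43.9 and 51.9 in CE on day 3 (2.86 ± 0.10, adjusted p = 3.17e-08). On day 0 its means were 136 TPM in SNE and 128 in CE (0.09), a difference between days of 2.77 ± 0.14 (adjusted p = 3.4e-05). AHNAK, a scaffold under the plasma membrane, stood at 487 and 487 TPM in SNE and 33.6 and 38.9 in CE on day 3 (3.72 ± 0.08, adjusted p = 6.95e-09), against 1.72 on day 0. The filamins, which cross-link actin, include 2 genes whose fitted value was below 0 on day 0. FLNA stood at 2270 and 2224 TPM in SNE and 884 and 947 in CE on day 3 (1.295 ± 0.08), against -0.51 on day 0. FLNC stood at 1921 and 1877 TPM in SNE and 496 and 541 in CE on day 3 (1.87), while on day 0 it was at 10.3 TPM in SNE and 12.04 in CE (-0.21). TLN1, the talin of integrin adhesions, stood at 223 and 217 TPM in SNE and 89.7 and 104 in CE on day 3 (1.18), against -0.9997 on day 0. The shift was not shared by every member, and ANK3, an ankyrin of axons, had a difference between days of 0.00.

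**Figure D5:**
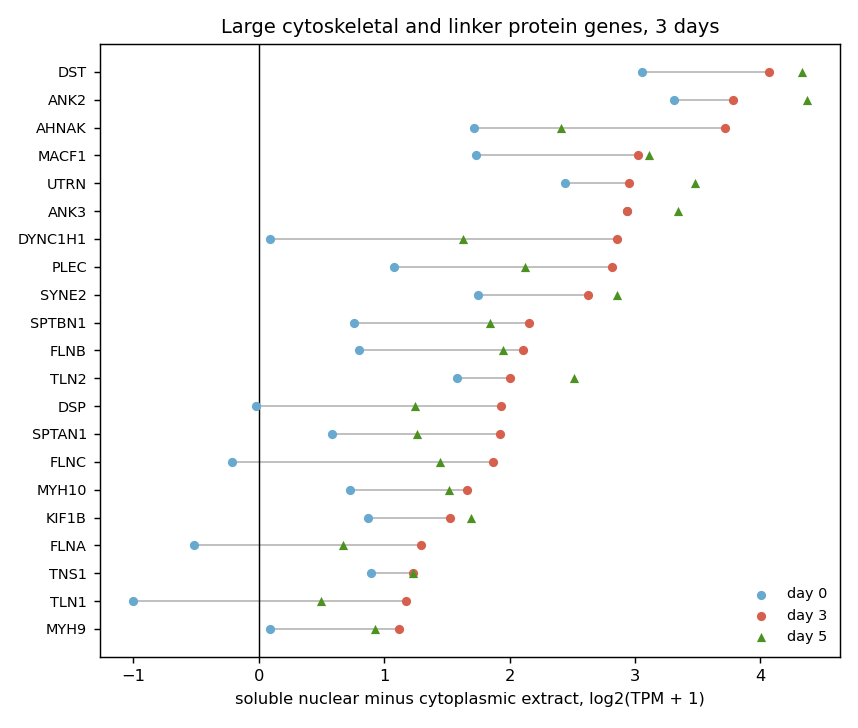
Each row is a giant cytoskeletal or linker gene, with the log2 difference of SNE minus CE on the horizontal axis and a point for each of days 0, 3 and 5. The day 3 points all lie above 0, and those of day 0 lie to the left for most genes, with ANK3 an exception.

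Other lists are given beside the share of all genes with a higher (6.44%) or lower (1.38%) difference on day 3 than on day 0. Collagens and laminins gave 12 higher and 0 lower of 47 (9 and 2 under a common median), FN1 among them (1.69). ZNF genes gave 37 and 0 of 388 (19 and 0 under a common median). Tubulins and actins gave 6 and 0 of 24, and chromatin enzymes 7 and 0 of 53. Histones gave 0 and 6 of 58, or 4 and 5 after quantile normalisation. As a group they hardly shifted, with a median difference between days of -0.01, or 0.28 after quantile normalisation. Among protein-coding genes with at least 500 bases of exons, a set added after the values were seen because short genes led the first one, the largest shift belonged to DYNC1H1, followed by MAP1A (2.66), a microtubule-associated protein, and NES (2.47). NES, the intermediate filament nestin, stood at 1496 and 1490 TPM in SNE and 527 and 605 in CE on day 3 (1.40), against -1.07 on day 0. ACTA1, skeletal alpha-actin, was the lowest of this set. It stood at 85.7 and 99.4 TPM in SNE and 696 and 615 in CE on day 3 (-2.81 ± 0.12), while on day 0 it was at 15.2 and 14.5 TPM (0.06), a shift of -2.88. MIXL1 (-1.84), ACTG2 (-1.80) and NPPB (-1.69), all low on day 0, shifted downwards like ACTA1.

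Against day 5, lists of primitive streak and endoderm genes had more higher than lower differences on day 3. Over all tested genes 1.52% had a higher and 2.75% a lower difference. Both lists hold scarce genes. Only 11 of the 20 tested streak genes and 4 of the 8 endoderm genes passed the filter of 5 TPM. On day 5 the primitive streak list had 1 gene higher in SNE and 14 lower, with a median of -1.66, against -0.84 on day 3. The difference between extracts was higher on day 3 than on day 5 for 7 of the 20 and lower for 0 (12 and 0 under a common median, 3 and 0 after quantile normalisation). Of the 8 endoderm genes 4 were higher and 1 lower (5 and 0 under a common median, 4 and 1 after quantile normalisation), with a median of 1.02. Among protein-coding genes with at least 500 bases of exons, the largest shifts upwards included those of FOXC1 (2.57), DIO3 (2.43) and DKK1 (2.11), a secreted WNT inhibitor. Those downwards belonged to ID3 (-3.72), ARHGAP24 (-3.56), AHR (-3.20) and DMD (-2.72), the dystrophin gene. Several of these genes were scarce on day 3, such as AHR at 1.27 and 1.25 TPM in SNE and 0.105 and 0.104 in CE. ID3, a BMP target, was more abundant but uneven, at 34.5 and 11.95 TPM in SNE and 110 and 85.9 in CE, with INPUT at 0 and 115. FOXC1 stood at -1.005 after quantile normalisation and AHR at -0.024 under a common median, so the direction of their day 3 difference depended on the scale.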

How the data were processed

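Total RNA libraries of H1 cells were analysed from the authors' deposited table of TPM values, with 1 column per library and 0 columns of other samples. The unit was read from the values, since all columns sum to nearly the same total. The tools named in the submitters' processing notes are Salmon 1.3.0, featureCounts 1.6.2, HISAT2 2.0.5 and GATK, on hg38, and which of them made the TPM table, and whether strand was used, is not given in the sources used here. All 57939 gene identifiers matched GENCODE 29, which gave coordinates, exon and intron lengths and GC content. Exon length joined the exons of all annotated transcripts of a gene, and intron length was the rest of the gene's span. Exon number and GC content were those of the longest transcript. Start sites and microRNA sequences came from RefSeq (GRCh38.p14). The polyA table was not used.

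Values were taken as log2(TPM + 1), which understates differences of low genes. A mean for each of 6 groups (SNE and CE of days 0, 3 and 5, 12 libraries, 6 residual degrees of freedom) was fitted (R 4.3.3, limma 3.58.1), and variances were moderated with trend and robust options, so that groups of 2 borrowed spread from each other, and p-values were Benjamini-Hochberg adjusted over all 18097 genes. With 2 libraries against 2, an exact two-sided permutation test of a single value cannot go below p = 0.333 and none was run. Python 3.11.15, pandas 2.3.3 and scipy 1.17.1 made the tables.

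The members and gene lists were chosen with earlier results of these data known. Named genes were the 12 largest called differences in each direction at 20 TPM or more, the 2 most abundant and the 2 most different in each direction of every list, the 5 largest of each interaction, a few always given (MALAT1, NEAT1, GAPDH, ACTB, POU5F1, TBXT, HAND1), and members whose role is described. Added after the values were seen were the lists of microRNA hosts, mitochondrial tRNAs and polyadenylated histone variants, and, restricted to 500 or more bases of exons, the 12 largest protein-coding and 8 largest named lncRNA differences in each direction and the 8 largest protein-coding interactions. Alternatives covered scaling, pseudocount, low-value filters, the libraries fitted, the replicate block and each library left out.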

Additional observations from a re-analysis of the deposited data

Results flagged for a closer look

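The 10 genes given for each of the tests of a difference between days (SNE minus CE on day 3 minus the same on another day, limma adjusted p under 0.05, log2 scale) were nearly all very short, so that 1 read moves them far. Against day 0 the difference was higher on day 3 for MIR27A (6.53), SNRPGP10 (4.7), RNU6-822P (4.58), SNRPGP15 (4.2) and AC007182.2 (4.09). It was lower for a Y_RNA gene (-4.85), AC090498.1 (-4.61), AC007485.1 (-3.98), ACTA1 (-2.88) and AL080285.2 (-2.84). Against day 5 it was higher for MIR27A (8.9), RNU1-28P (5.02), MIR320A (4.72), RNU6-822P (4.58) and RNU6-353P (4.55), and lower for MIR3929 (-6.1), another Y_RNA gene (-5.92), AC062037.2 (-5.22), MIR563 (-4.01) and MT-TH (-3.8). ACTA1 has 1495 bases of exons. MIR27A, of 78 bases, stood at 18.9 and 33.8 TPM in SNE on day 3 and was listed at 0 in both CE and both INPUT libraries.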

How the results depend on the processing

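Counts moved with the scale. Mitochondrial mRNAs and tRNAs, histones, nuclear lncRNAs and giant linkers kept the sign of their median with a common median and after quantile normalisation. Medians of snoRNA hosts, WNT, FGF, BMP and nuclear pore genes turned below 0 with a common median. So did those of SR and hnRNP, lateral mesoderm, imprinted, endothelial, immediate early and cytoplasmic lncRNA genes. Genes higher in SNE on day 3 (8144) came to 5064 with a pseudocount of 5, 2934 with a common median and 3982 after quantile normalisation. Genes lower (2114) came to 949 in protein-coding genes alone, 5133 with a common median, 4036 after quantile normalisation and 3795 by adjusted p alone. Against day 0, 1166 higher came to 718 (pseudocount 5), 677 (common median), 580 (all 36 libraries fitted) and 4778 (adjusted p alone). The 250 lower came to 451 (no filter), 94 (filter of 5 TPM), 149 (pseudocount 0.1), 119 (protein-coding alone), 508 (common median), 679 (quantile), 102 (all 36 libraries) and 1639 (adjusted p alone). Against day 5, 275 higher came to 163 (filter of 5 TPM), 141 (pseudocount 5), 445 (common median), 415 (quantile), 64 (all 36 libraries) and 1668 (adjusted p alone). The 498 lower came to 245 (filter of 5 TPM), 220 (protein-coding alone), 308 (common median), 270 (all 36 libraries) and 3802 (adjusted p alone). The cause of these shifts was not tested, beyond the fewer genes entering under a filter. Leaving out each day 3 library in turn gave 7684 to 8304 higher and 1940 to 2131 lower, 977 to 1411 and 226 to 254 against day 0, and 235 to 305 and 441 to 556 against day 5. With the replicate number as a block, 8116 were higher and 2109 lower, 1144 and 243 against day 0 and 259 and 480 against day 5. Samples with the same number did not deviate together across genes (r = -0.017, 0.003 and 0.018 on days 0, 3 and 5). This cannot show whether same-numbered extracts came from 1 fractionated sample, and the labels do not say. Of 291 named genes, 225 kept their side and direction with a common median and 289 with the block. The genes that turned were AC007485.1 (-0.0053), FOXC1 (-1.005) and SRSF2 (1.01) after quantile normalisation, and PEG10 (-1.001), AHR (-0.024), MAT2A (-0.037) and ANXA3 (-0.047) with a common median. With 2 libraries a group and 1 read on 1 kb worth 0.707 to 1.47 TPM, values of genes near 1 TPM rest on few reads unless the gene is long.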

Other observations

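Smaller lists showed members on both sides. Immediate early genes, switched on by growth signals and stress, gave 2 higher and 4 lower of 31, with a median of 0.14 (1 and 15 under a common median, but 7 and 0 with mitochondrial genes removed). FOS, the partner of JUN in AP-1, stood at 420 and 414 TPM in SNE and 134 and 124 in CE (1.69), and JUND at 285 and 264 in SNE and 663 and 811 in CE (-1.42). Cell cycle inhibitors and p53 targets gave 6 higher and 2 lower of 26, which turned to 0 and 15 under a common median and 1 and 7 after quantile normalisation. MDM2, the ligase that marks p53 for degradation, stood at 509 and 507 TPM in SNE and 181 and 204 in CE (1.40). Sterol and fatty acid synthesis gave 5 higher and 2 lower of 29 (0 and 16 under a common median, 2 and 5 after quantile normalisation), with ELOVL6 (1.76) higher and EBP (-1.59) lower. Imprinted genes gave 9 higher and 4 lower of 19 (4 and 8 under a common median). Among them NNAT, neuronatin, stood at 34.5 and 24.5 TPM in SNE and 306 and 320 in CE (-3.38), and NDN, necdin, at 51.1 and 54.7 in SNE and 198 and 236 in CE (-2.01). Structured RNAs of polymerase III and small nuclear RNAs gave 0 higher and 1 lower of 9 (0 and 3 under a common median), the 1 being RN7SL3, a signal recognition particle RNA gene, at 4715 and 3681 TPM in SNE and 10818 and 9097 in CE (-1.25).

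ID3 was called on opposite sides on different days. Its means were 31.6 TPM in SNE and 91.4 in CE on day 0 (-1.50), 23.2 and 97.7 on day 3 (-2.19), and 84.8 and 27.1 on day 5 (1.53). As given above, its day 3 SNE and INPUT values were uneven between replicates, so its level is uncertain. MAP1A had means of 5.00 TPM in SNE and 15.5 in CE on day 0 (-1.46) and 49.7 and 21.1 on day 3 (1.20).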
